A study of Homo sapiens with 12 samples.

Results

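The genes described here are 10 nuclear genes for mitochondrial biogenesis and for copying and transcribing mitochondrial DNA, chosen by name from the 57500 genes in the count files: the coactivators PPARGC1A and PPARGC1B, the transcription factor NRF1, the mitochondrial DNA packaging factor TFAM, the transcription factors TFB1M and TFB2M, the mitochondrial RNA polymerase POLRMT, the DNA polymerase POLG, the helicase TWNK and the terminator MTERF1. RNA was sequenced from HepG2, a human hepatocellular carcinoma line, in 3 groups of 4 libraries, all after 24 h in standard medium with 400 µM glycine. WT cells were unmodified, shTST cells carried a silencing construct against TST (thiosulfate sulfurtransferase, a mitochondrial enzyme that detoxifies cyanide) and overTST cells were engineered to overexpress TST. Silencing used a TST shRNA plasmid and overexpression a codon-optimized, CMV-driven construct, delivered by lentivirus with blasticidin selection, so the lines also differed from WT in having been transduced and selected. The 4 libraries of a group are labelled as independent replicates, and the study's methods define independent experiments in general as run on different days. The labels tie no library to a day or culture, and the p-values measure the spread between these libraries.

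Mitochondria carry a small circular genome that encodes core subunits of the respiratory chain, and everything needed to copy and transcribe it is encoded in the nucleus. PPARGC1A and PPARGC1B do not bind DNA themselves but dock on factors such as NRF1 and the oestrogen-related receptors, and NRF1 activates many nuclear genes for mitochondrial proteins, TFAM among them. Inside the organelle TFAM bends the promoter, TFB2M opens it and POLRMT makes the transcript, which also primes replication by POLG and TWNK. In liver cells PPARGC1A is also known for its part in the fasting response and gluconeogenesis.

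Total counts ran from 22911380 to 45120508 per library, and every overTST library (22911380 to 27414142) was shallower than every WT library (28866175 to 45120508). All 10 hepatocyte and HepG2 markers were detected in every library, between 59.9 and 8342 CPM, the count per 1e6 counts after scaling. Of 10 markers of other cell types, 7 had 10 or fewer counts in every library, among them the blood marker PTPRC at 0 or 1 count, while ACTA2 stood at 50.6 to 65.8 CPM. All 10 together summed to 53.7 to 63.2 per 1e6 counts in WT, 58.7 to 62.3 in shTST and 59.3 to 67.8 in overTST. Of the 3 tested, PECAM1, an endothelial marker, had a log2 fold change of -0.41 in shTST (edgeR adjusted p = 0.0878) and 0.60 in overTST (edgeR adjusted p = 0.00278), and was lower in shTST than in overTST by -1.02 (edgeR adjusted p = 2.3e-05), at 1.41 to 3.50 CPM in all. ACTA2 was 0.16 higher in overTST (edgeR adjusted p = 0.0455; 0.273 after length correction). COL1A1 had values of the opposite sign to PECAM1, none called. They were 0.12 in shTST (edgeR adjusted p = 0.772), -0.48 in overTST (edgeR adjusted p = 0.107) and 0.60 in shTST against overTST (edgeR adjusted p = 0.0569). Of the hepatocyte markers 4 were higher in shTST: ALB (0.39, edgeR adjusted p = 0.00140), AFP (0.49, edgeR adjusted p = 0.000215), FGB (0.44) and TF (0.41). In shTST 2 were lower, TTR (-0.33, edgeR adjusted p = 7.7e-05) and APOB (-0.19, edgeR adjusted p = 0.0266). In overTST 2 were higher, APOA1 (0.24) and TTR (0.16), and 2 lower, APOB (-0.55, edgeR adjusted p = 1.5e-06) and HNF4A (-0.15, edgeR adjusted p = 0.0125). The part of these shifts in the results on the members was not tested. TST itself stood at 47.2, 47.5, 52.8 and 48.5 CPM in WT, at 33.0, 33.6, 36.6 and 33.5 CPM in shTST and at 51.8, 56.0, 61.6 and 62.1 CPM in overTST. All shTST libraries lay below WT, with a log2 fold change of -0.52 (SE 0.055, edgeR adjusted p = 3.2e-06). The overTST value was 0.24 (SE 0.062, edgeR adjusted p = 0.00384), which no longer passed after a correction for gene length (0.097, edgeR adjusted p = 0.201), and reads of a codon-optimized transgene need not align to TST. In bulk RNA, a lower level per cell and fewer cells expressing a gene cannot be told apart.

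Per kilobase of exonic length, the most abundant member in WT was the polymerase POLRMT, at 32.2 ± 1.88 CPM per kb (SD, n = 4). TFB1M, a ribosomal RNA methyltransferase, at 17.7 ± 1.35 and TWNK at 17.1 ± 0.949 CPM per kb followed, with overlapping ranges. TFAM at 14.5 ± 0.595 and TFB2M at 13.6 ± 1.10 CPM per kb came next and also overlapped. POLG at 7.67 ± 0.419 and NRF1 at 4.65 ± 0.253 CPM per kb were separate from their neighbours. The lowest were MTERF1 at 0.928 ± 0.171 and PPARGC1A at 0.812 ± 0.0595 CPM per kb, which overlapped, and PPARGC1B at 0.215 ± 0.0294 CPM per kb. The order of the 10 means was the same in shTST and overTST, although the gap between POLRMT and TFB1M was smaller there, with POLRMT at 26.1 ± 0.961 in shTST and 28.9 ± 1.79 CPM per kb in overTST (SD, n = 4). The lower 3 rest on few reads, with 142 to 396 counts per library for PPARGC1A, 62 to 136 for PPARGC1B and 82 to 235 for MTERF1.

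**Figure D1:**
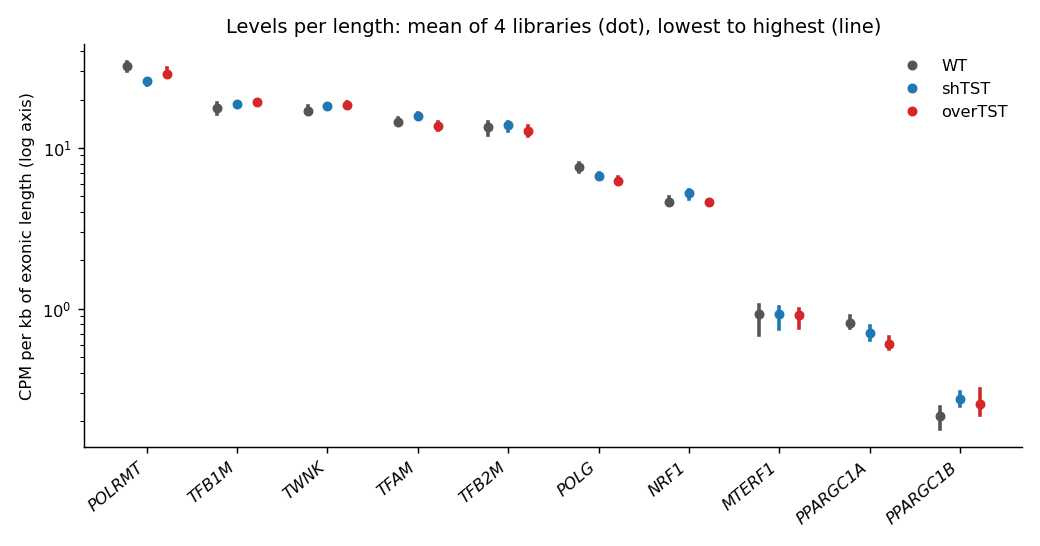
Level of each member per kilobase of exonic length in WT, shTST and overTST (log axis): the dot is the mean of 4 libraries and the line runs from the lowest to the highest library. POLRMT leads in every group, at 32.2 CPM per kb in WT, and PPARGC1B is lowest, at 0.215 CPM per kb.

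RefSeq promoter windows (GRCh38.p14, 250 bases before to 50 bases after a start site) were matched for 8 of the 10 members. They were searched on both strands for the NRF1 half-site TGCGCA, the GABP motif CCGGAAG, the ERR-alpha motif AAGGTCA, the cAMP response element TGACGTCA and the GC box GGGCGG, found in 8.24%, 10.26%, 3.92%, 1.85% and 44.95% of 35116 windows. The NRF1 half-site was in the windows of 2 members, TFB2M and POLRMT, and the GABP motif in those of TFB1M, POLRMT and MTERF1. A longer NRF1 core, GCGCATGC, was added after the windows had been seen. It shares bases with the half-site where both occur, was in 3.05% of all windows and in those of TFB1M, TFB2M and POLRMT. These matches are letters in a window and no binding was measured. Some start sites lie away from the gene edge as counted, by 568816 and 22988 bases for PPARGC1A, 41642 for PPARGC1B and 388 for TFAM. A motif missing from those windows need not be missing at the edge of the counted gene.

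The core matches, joined where they overlap into 4 stretches, are shown because they lie in the polymerase gene, which fell in shTST, and in both TFB genes, which did not pass the test in either line. Each is a 30-base stretch of the minus strand, 5′ to 3′, with the NRF1 letters in capitals, at chr6:155314597-155314626 for TFB1M, chr1:246566258-246566287 for TFB2M, chr19:633651-633680 for POLRMT (upstream) and chr19:633542-633571 for POLRMT (start). The joined matches, half-site included, began 132, 15, 132 and 24 bases before the start site, and those of TFB2M and of POLRMT (start) lie inside the gene as the count files bound it.
TFB1M: gcaggacttaGCGCATGCGCtctcagcacg
TFB2M: ctccgctgttcGCATGCGCAggctctagtg
POLRMT (upstream): agcgtccaccgGCGCATGCcttcgcgcctc
POLRMT (start): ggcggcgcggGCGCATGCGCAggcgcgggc

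The GABP motif stood in POLRMT 93, in TFB1M 85 and in MTERF1 50 bases before the start site. The first of these lies in the same upstream stretch as the upstream NRF1 core. That exon-free stretch, the 183 bases of the minus strand at chr19:633605-633787, is given below, with the NRF1 core and the GABP motif (as CTTCCGG) in capitals.
POLRMT upstream stretch: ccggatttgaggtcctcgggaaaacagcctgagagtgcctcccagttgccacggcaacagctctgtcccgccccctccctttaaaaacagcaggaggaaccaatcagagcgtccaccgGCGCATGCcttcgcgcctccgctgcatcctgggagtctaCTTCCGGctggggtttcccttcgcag

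In shTST cells the mitochondrial RNA polymerase fell, as did the replicative polymerase subunit POLG, and TFAM rose slightly. Of the 10 members, 1 was higher and 2 were lower than WT at an edgeR adjusted p of 0.05 or less, against a background of 6.69% of all 14584 genes tested called higher, 9.40% called lower and 16.1% called in either direction. Of the genes called, 41.6% were higher, and 52.7% under upper-quartile scaling. The count of 3 became 1 without WT replicate 4 or without shTST replicate 2. The median log2 fold change of the members was 0.055, against 0.0040 over all genes tested. The groups did not overlap in CPM for 3 members, POLRMT, POLG and PPARGC1B, where 19.1% of all genes did not overlap.

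POLRMT is the single-subunit enzyme that transcribes both mitochondrial strands. It stood at 153.9, 175.1, 160.7 and 171.1 CPM in WT and at 126.6, 135.3, 137.3 and 136.3 CPM in shTST, so that every shTST library was below every WT library. Its log2 fold change was -0.30 (SE 0.047, edgeR adjusted p = 0.000177), a decrease of 18.9%. The call held under all 11 alternative settings and with each of the 8 libraries left out. In overTST it stood at 143.5, 161.7, 142.5 and 144.2 CPM, with the second library inside the WT range. There the log2 fold change was -0.16 (SE 0.054, edgeR adjusted p = 0.0235), but this did not pass after length correction (-0.12, edgeR adjusted p = 0.0884), under upper-quartile scaling (-0.13, edgeR adjusted p = 0.0591), or without WT replicate 2 (edgeR adjusted p = 0.0729), WT replicate 4 (0.0874), overTST replicate 3 (0.0864) or overTST replicate 4 (0.0635).
POLRMT has an annotated pseudogene, POLRMTP1, which held 574 counts over all 12 libraries beside 54149 for POLRMT. Reads shared between the copies cannot be assigned from the tables.

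POLG, the catalytic subunit of the only replicative DNA polymerase of mitochondria, stood at 42.3, 48.0, 47.0 and 46.0 CPM in WT. It was 40.9, 39.1, 39.7 and 41.8 CPM in shTST and 39.5, 35.7, 38.5 and 36.6 CPM in overTST. Both lines lay wholly below WT. The log2 fold change was -0.18 in shTST (SE 0.053, edgeR adjusted p = 0.0202) and -0.29 in overTST (SE 0.060, edgeR adjusted p = 0.000637). The overTST call held under every alternative run and without any 1 library, while the shTST call was lost without WT replicate 2 (edgeR adjusted p = 0.0509), WT replicate 4 (0.0556), shTST replicate 2 (0.0663) or shTST replicate 3 (0.0520). POLG shares 458 exonic bases, 7.66% of its length, with FANCI on the opposite strand, and the sources used here do not say whether counting used strand. FANCI, a DNA crosslink repair gene, had a log2 fold change of 0.074 in shTST (edgeR adjusted p = 0.398) and -0.28 in overTST (edgeR adjusted p = 0.00127). The part of these shared bases in the POLG result was not tested.

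**Figure D2:**
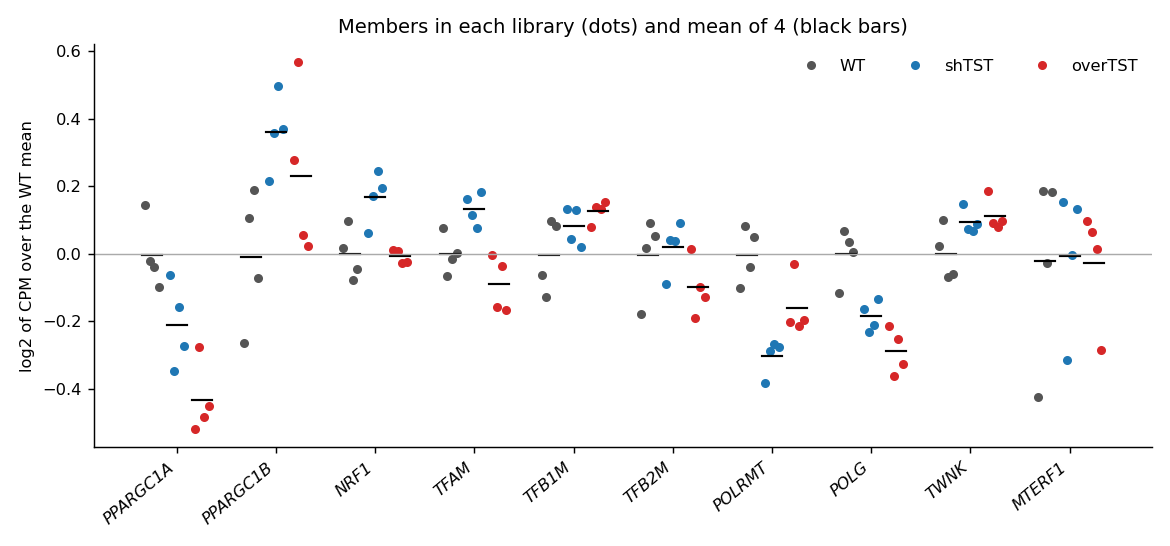
Each member in each library as the log2 of its CPM over the WT mean, for WT, shTST and overTST (dots, 4 per group) with the mean of the 4 dots (black bars). POLRMT and POLG lie below all WT libraries in shTST, PPARGC1A and POLG do so in overTST, and PPARGC1B lies above all WT libraries in shTST.

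TFAM, which coats the mitochondrial genome and is needed for its transcription and maintenance, moved in the other direction in shTST. It stood at 85.7, 77.7, 80.4 and 81.3 CPM in WT and at 91.0, 88.0, 85.7 and 92.3 CPM in shTST, where the lowest library fell just inside the WT range. The log2 fold change was 0.14 (SE 0.046, edgeR adjusted p = 0.0452), close to the threshold. The call was lost with no filter on low counts (edgeR adjusted p = 0.136), with all 12 libraries in the fit (0.0623), and without WT replicate 2 (0.112), WT replicate 3 (0.0720), WT replicate 4 (0.0857), shTST replicate 1 (0.102), shTST replicate 2 (0.0606) or shTST replicate 4 (0.130). In overTST TFAM stood at 81.1, 72.9, 79.3 and 72.4 CPM, with a log2 fold change of -0.087 (SE 0.054, edgeR adjusted p = 0.231).

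NRF1, the activator upstream of many of these genes, stood at 19.4, 20.5, 18.2 and 18.6 CPM in WT and at 20.004, 21.6, 22.8 and 21.9 CPM in shTST. In shTST 3 libraries exceeded all WT libraries, but the difference of 0.17 on the log2 scale (SE 0.065) missed the threshold (edgeR adjusted p = 0.0807). Under upper-quartile scaling (edgeR adjusted p = 0.0466) and without WT replicate 2 (0.0446) it passed. In overTST NRF1 stood at 19.3, 19.3, 18.8 and 18.9 CPM, all within the WT range, with a log2 fold change of -0.0092 (SE 0.070, edgeR adjusted p = 0.934).

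The coactivators differed from each other. PPARGC1A stood at 9.75, 8.70, 8.59 and 8.25 CPM in WT, at 8.45, 6.93, 7.91 and 7.30 CPM in shTST and at 6.16, 7.29, 6.32 and 6.46 CPM in overTST. All overTST libraries were below all WT libraries, and the log2 fold change was -0.43 (SE 0.0997, edgeR adjusted p = 0.00169), a decrease of 25.8%. After length correction it was -0.27 (edgeR adjusted p = 0.0467), and with the replicate number as a block as well it missed the threshold (edgeR adjusted p = 0.0575). In shTST the value was -0.21 (SE 0.091, edgeR adjusted p = 0.131), with 3 libraries below all WT libraries.
PPARGC1B, a relative of PPARGC1A that also coactivates the oestrogen-related receptors, stood at 2.31, 2.99, 3.16 and 2.64 CPM in WT and at 3.22, 3.55, 3.91 and 3.58 CPM in shTST. All shTST libraries were above WT, but the log2 fold change of 0.37 (SE 0.135) did not pass (edgeR adjusted p = 0.0678). It passed after length correction (0.39, edgeR adjusted p = 0.0478), with that correction and the replicate block together (edgeR adjusted p = 0.0377), and without WT replicate 3 (edgeR adjusted p = 0.0482). In overTST it stood at 3.36, 4.11, 2.88 and 2.82 CPM, overlapping WT, with a log2 fold change of 0.25 (SE 0.155, edgeR adjusted p = 0.235). That value was 0.13 without overTST replicate 2 (edgeR adjusted p = 0.599), and after length correction it was 0.43 and passed (edgeR adjusted p = 0.0419).

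The remaining 4 factors did not pass the test in either line. TFB2M, which melts the mitochondrial promoter for POLRMT, stood at 22.2, 25.5, 26.8 and 26.1 CPM in WT, at 23.7, 25.9, 25.9 and 26.8 CPM in shTST and at 25.4, 22.1, 23.5 and 23.0 CPM in overTST. Its log2 fold change was 0.024 in shTST (95% interval -0.11 to 0.16) and -0.096 in overTST (95% interval -0.24 to 0.053). TFB2M has the shortest exonic length of the members, 1848 bases, and after length correction its overTST value was -0.24 (edgeR adjusted p = 0.0124).
TFB1M, which methylates the small mitochondrial ribosomal RNA, had a log2 fold change of 0.085 in shTST (95% interval -0.032 to 0.20) and 0.13 in overTST (95% interval 0.0071 to 0.25, edgeR adjusted p = 0.0961). It shares 215 exonic bases with TIAM2 on the opposite strand, whose own edgeR adjusted p was 0.889 in shTST and 0.521 in overTST. Its group means were 17.7, 18.8 and 19.4 CPM per kb in WT, shTST and overTST, with ranges that overlapped WT in both lines.
TWNK, the replicative helicase, had log2 fold changes of 0.093 (95% interval -0.0084 to 0.20, edgeR adjusted p = 0.207) and 0.11 (95% interval 0.0011 to 0.23, edgeR adjusted p = 0.112). It shares 149 exonic bases with MRPL43 on the opposite strand, which rose in overTST (0.28, edgeR adjusted p = 0.00038). MTERF1, which binds the mitochondrial genome just after the ribosomal RNA genes and can end transcription there, had log2 fold changes of -0.0041 (95% interval -0.29 to 0.28) and -0.021 (95% interval -0.31 to 0.27). At its low counts these intervals leave room for changes of either sign.

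In overTST cells PPARGC1A, POLG and POLRMT were called lower and no member was called higher, without length correction. That was 0 members higher and 3 lower at an edgeR adjusted p of 0.05 or less, where 15.7% of all 14421 genes tested were called higher, 18.2% lower and 33.9% in either direction. At an unadjusted edgeR p under 0.05, 2 members were higher, TFB1M and TWNK. DESeq2 and limma-voom also called 0 higher and 3 lower. After length correction 1 member was called higher, PPARGC1B, and 3 lower, PPARGC1A, TFB2M and POLG. POLRMT was then not called. Under upper-quartile scaling TFB1M (0.16, edgeR adjusted p = 0.0473) and TWNK (0.14, edgeR adjusted p = 0.0444) passed as higher, and TWNK also did without WT replicate 2 (edgeR adjusted p = 0.0460). The median log2 fold change of the members was -0.054, against 0.0019 over all genes. The groups did not overlap for 2 members, PPARGC1A and POLG, where 30.4% of all genes did not overlap. These shares of called members are close to the background in this comparison.

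**Figure D3:**
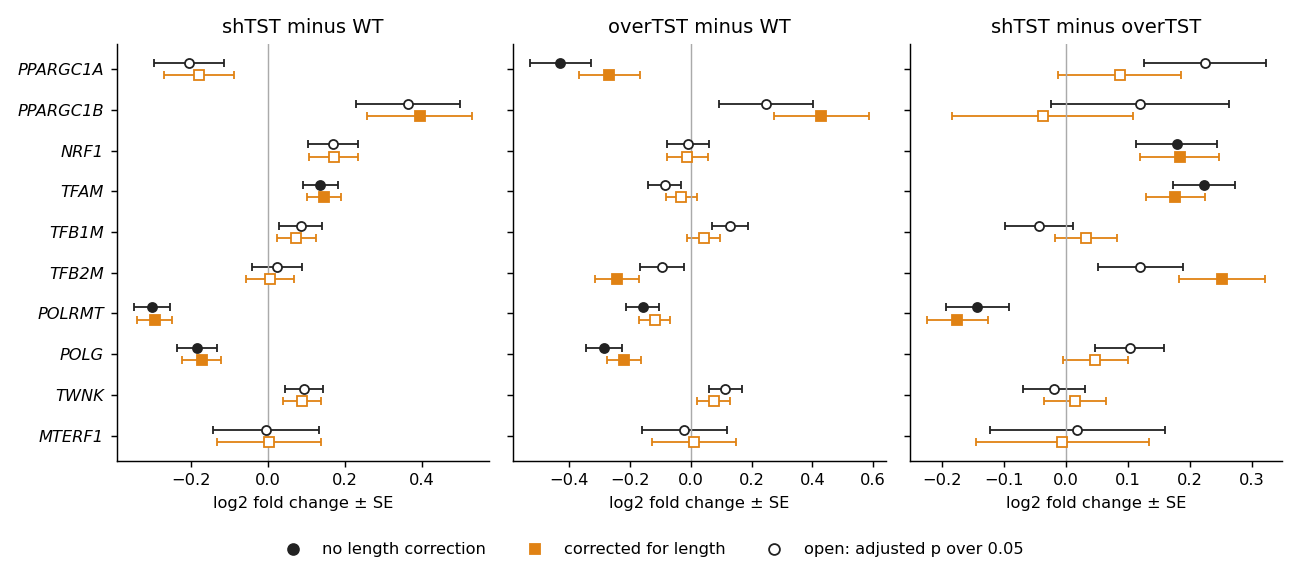
Log2 fold change of each member with its SE from edgeR in shTST minus WT, overTST minus WT and shTST minus overTST, without (black circles) and with (orange squares) a correction for gene length; filled symbols have an adjusted p of 0.05 or less. POLRMT at -0.30 in shTST and PPARGC1A at -0.43 in overTST are the lowest values of their panels.

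Set directly against each other, the lines differed in 3 members. NRF1 and TFAM were higher in shTST than in overTST and POLRMT was lower, a count of 2 higher and 1 lower where 16.9% of all 14883 genes tested were called higher, 16.1% lower and 33.0% in either direction. These 3 members also had groups that did not overlap, as 29.2% of all genes did. TFAM differed by 0.22 on the log2 scale (SE 0.050, edgeR adjusted p = 0.00119), a call that held under every alternative run and without any 1 library.
NRF1 differed by 0.18 (SE 0.065, edgeR adjusted p = 0.0374), which was lost with no filter (0.0652) and without any of shTST replicates 2, 3 and 4 or overTST replicates 2, 3 and 4 (edgeR adjusted p from 0.0594 to 0.112). POLRMT differed by -0.14 (SE 0.051, edgeR adjusted p = 0.0309), which was lost with no filter (0.0959), without shTST replicate 1 (0.108), without shTST replicate 2 (0.0509) and without overTST replicate 2 (0.158). After length correction TFB2M was called as well, higher in shTST by 0.25 (edgeR adjusted p = 0.00719) against 0.12 without the correction (SE 0.069, edgeR adjusted p = 0.192), which made 3 members higher and 1 lower. PPARGC1A differed by 0.22 (SE 0.098, edgeR adjusted p = 0.0810) and POLG by 0.10 (SE 0.056, edgeR adjusted p = 0.167). For POLG, which fell in both lines, the difference between the lines was therefore not called. The count of 3 became 1 with no filter, without shTST replicate 2 or without overTST replicate 2. The median over the members was 0.11, against 0.00084 over all genes. Both comparisons with WT rest on the same WT libraries.

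Gene length moved with the fold changes across all genes, mainly in overTST. The median log2 fold change there went from 0.21 in genes of up to 1 kb to -0.16 in genes over 8 kb, against 0.057 and -0.020 in shTST. PPARGC1A (10870 bases) and PPARGC1B (12889 bases) are in the longest class and had values of opposite sign, so only PPARGC1A lay on the side of its class median in overTST. POLG (5980 bases) and POLRMT (5124 bases) are in the class of 4 to 8 kb, whose median was -0.052 in overTST. With the trend removed, the members called in overTST were PPARGC1A, TFB2M and POLG, all lower, and PPARGC1B, higher. What the length trend reflects was not tested.

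**Figure D4:**
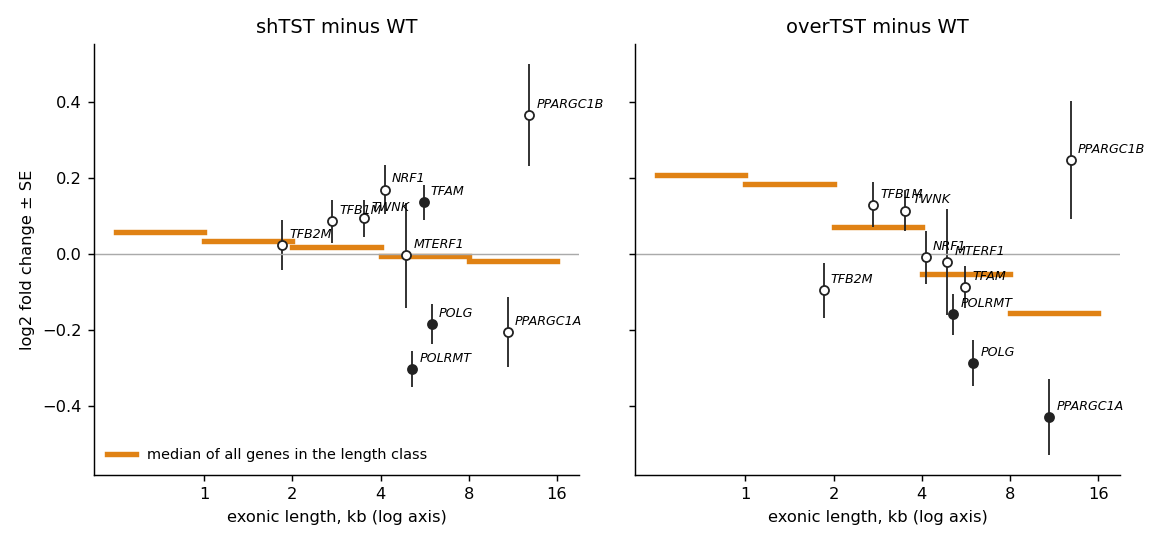
Log2 fold change with SE of each member against its exonic length in kb (log axis) for shTST minus WT and overTST minus WT, with the median of all genes in 5 length classes (orange bars); filled dots have an adjusted p of 0.05 or less. In overTST the class medians fall from 0.21 to -0.16 with length, and PPARGC1B is above the median of its class.

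Around these members, 65 related genes were listed, of which 63 were tested. In shTST 6 were higher and 5 lower, with a median log2 fold change of -0.0053, a total of 11 that became 6 without shTST replicate 1 and 7 without shTST replicate 3. In overTST 14 were higher and 14 lower, with a median of 0.012. The background of genes called in either direction was 16.1% and 33.9%, as above. Regulators of the PPARGC1 circuit were mostly lower in overTST, with 9 lower and 1 higher of 17 tested and a median of -0.18, while in shTST 1 was lower (median -0.044). After length correction 7 were lower and 2 higher in overTST, with a median of -0.055.
The regulators with the smallest p were NRIP1, a corepressor of nuclear receptors (-0.56, SE 0.070, edgeR adjusted p = 1.9e-06), and PPARA, the fatty acid receptor that governs oxidation genes in liver (-0.43, SE 0.065, edgeR adjusted p = 2.2e-05; -0.24 after length correction). In shTST the regulator called was PPARD, a related receptor, at -0.23 (SE 0.056, edgeR adjusted p = 0.00682).

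Genes of mitochondrial DNA replication and maintenance included calls in both directions, 3 higher and 3 lower in shTST and 5 higher and 2 lower in overTST (4 and 1 after length correction), of 14 tested. For this and the role groups below, the share of all genes tested called in either direction was 16.1% in shTST and 33.9% in overTST. MGME1, the nuclease that trims mitochondrial DNA ends, rose by 0.29 in shTST (SE 0.045, edgeR adjusted p = 0.000135) and 0.33 in overTST (SE 0.051, edgeR adjusted p = 2.9e-05; 0.21 after length correction). FEN1, a flap endonuclease, rose by 0.20 in shTST (edgeR adjusted p = 0.00364), and SSBP1, the single-stranded DNA binding protein of the mitochondrial replisome, rose by 0.37 in overTST (edgeR adjusted p = 6.2e-06). SSBP1 and MGME1 thus stood higher in overTST while POLG was lower, as were TOP3A (-0.28) and LIG3 (-0.23) of this group of genes.
Of 8 genes for nucleotide supply, 2 were higher in shTST, ABAT (0.23) and the deoxyguanosine kinase DGUOK (0.16). In overTST 2 were higher and 2 lower, led by DGUOK (0.23, lost after length correction at edgeR adjusted p = 0.409) and the ribonucleotide reductase subunit RRM2B (-0.38, edgeR adjusted p = 0.00195).

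In the group of 5 transcription elongation factors and MTERF relatives, values in shTST ran from -0.061 to 0.32. In overTST MRPL12, a ribosomal protein also reported to bind POLRMT, was higher by 0.33 (SE 0.061, edgeR adjusted p = 0.000204; 0.15 after length correction). Of 19 genes for mitochondrial RNA processing and decay, 1 was higher and 1 lower in shTST: the exoribonuclease PNPT1 at 0.19 (edgeR adjusted p = 0.0161) and TBRG4 at -0.13 (edgeR adjusted p = 0.0474, and 0.0531 after length correction). In overTST 5 were higher and 1 lower, led by SLIRP, which stabilises mitochondrial messenger RNAs (0.51, SE 0.076, edgeR adjusted p = 1.8e-05), and the oligoribonuclease REXO2 (0.34, SE 0.059, edgeR adjusted p = 0.000104). Over all genes tested, 16.1% were called in shTST and 33.9% in overTST, so these counts do not stand above the background.

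**Figure D5:**
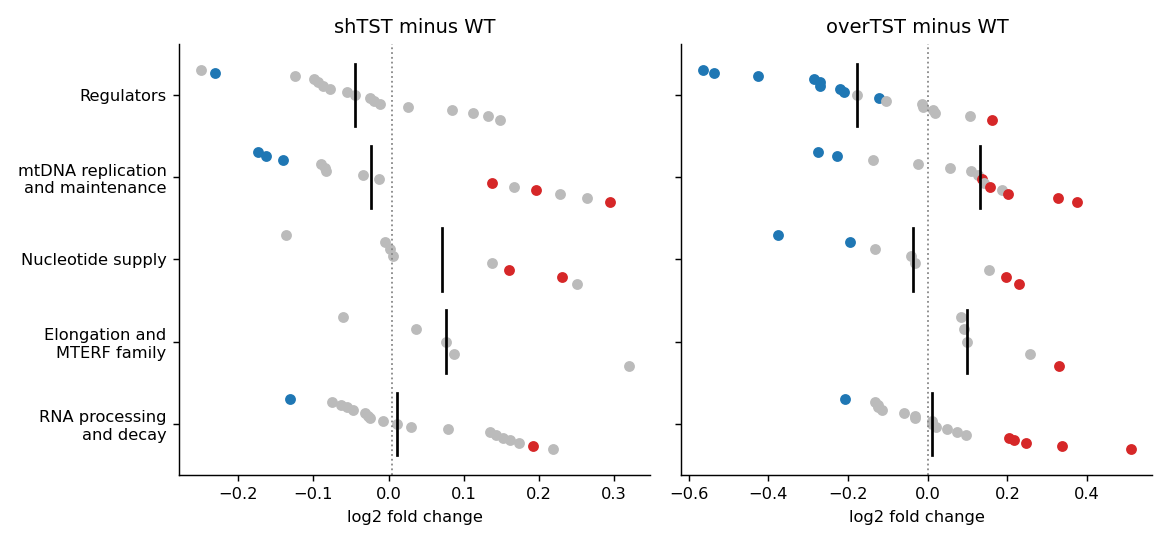
Log2 fold change of the related genes tested, by role, in shTST minus WT and overTST minus WT; red and blue dots are higher and lower at an adjusted p of 0.05 or less, grey dots are not called, black bars are role medians and the dotted line is the median of all genes. The regulators' median lies at -0.18 in overTST and at -0.044 in shTST.

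The transcripts this machinery makes can be set beside it. Mitochondrially encoded genes took 6.91 to 11.98% of counts in WT, 6.84 to 8.65% in shTST and 10.8 to 11.7% in overTST. The highest WT library, replicate 4, exceeded all overTST libraries. Two-sided exact permutation tests over libraries gave p = 0.4 for shTST and p = 0.143 for overTST, where the smallest p that 4 against 4 allows is 0.0286. The shTST share differed from WT by -1.20 percentage points, and by -0.148 without WT replicate 4. Of 13 mitochondrial protein genes, all had values below 0 in shTST and 1 was called lower (median log2 fold change -0.20). In overTST 13 were higher (median 0.42), of which 1 was still called after length correction (median 0.25), and for each of the 13 the overTST and WT libraries overlapped. Between the lines, all 13 were lower in shTST than in overTST (median -0.66, and -0.51 after length correction, with 13 called in both fits), and for all 13 the libraries of the lines did not overlap. Over all genes tested, 16.1% were called in shTST, 33.9% in overTST and 33.0% between the lines, where 29.2% did not overlap. The 13 genes lie on the same small genome and are not independent observations. Between the lines POLRMT was also lower in shTST, by the -0.14 given above, while TFAM (0.22) and NRF1 (0.18) were higher. Of these, the POLRMT call was lost in 4 alternative runs and the NRF1 call in 7. Against WT, POLRMT was lower in overTST (-0.16), where the 13 mitochondrial genes were higher. After length correction this POLRMT value was not called, and 1 of the 13 genes was. How the members relate to these transcripts was not tested.

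Across the 12 libraries the members did not move as 1 block. Pearson correlations of log2 CPM over their 45 pairs ran from -0.61 (TFB1M with POLG) to 0.67 (PPARGC1A with POLG), with a median of 0.047. These are descriptions over libraries that fall into 3 groups. Among 14882 other genes, the profile most like that of POLRMT belonged to ATP13A2 (r = 0.989), then ACTN1 (0.967) and VARS1 (0.960). For TFAM these were RAD21 (0.961), GNPNAT1 (0.959) and UFL1 (0.948), and for PPARGC1A they were TLR4 (0.960), MED14OS (0.917) and CSNK1A1 (0.909).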

How the data were processed

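Per the labels, RNA from HepG2 cells was sequenced in 12 libraries. The authors deposited raw counts per Ensembl gene for each library, with exonic gene lengths. The submitters' processing notes name Trimmomatic 0.36, STAR 2.5.2b, featureCounts from Subread 1.5.2 and the build GRCh38, while the annotation release and strand setting are not given in the sources used here. Of 57500 genes, 56410 had a symbol in the names table. Counts were tested with edgeR 4.0.16 (quasi-likelihood, filterByExpr, TMM, Benjamini-Hochberg over all genes tested) in R 4.3.3, with limma 3.58.1 and DESeq2 1.42.0 as alternatives. SE is the log2 fold change over the root of F. Each line was compared with WT over 8 libraries, and the lines with each other over all 12. CPM for display used 1 TMM scaling over 12 libraries. Length correction subtracted a lowess trend (span 0.3) as offsets. The members and lists were chosen with earlier results of these data known. Named genes were the members, TST, overlapping genes, the 2 related genes of smallest p among those called per role and comparison with WT, and the 3 most correlated genes for PPARGC1A, TFAM and POLRMT. No 2 libraries of a group agreed within sampling noise. Alternatives changed scaling, filter, tool, samples, length correction or replicate block.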

Additional observations from a re-analysis of the deposited data

Results flagged for a closer look

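POLRMT in the second overTST library stood at 161.7 CPM, set apart from the other 3, which ran from 142.5 to 144.2 CPM. TWNK in the first overTST library stood at 68.2 CPM, apart from the other 3 at 63.4 to 64.1 CPM. Both were picked out because the gap to the nearest library exceeded Dixon's 95% limit for 4 samples, which chance passes in about 1 in 20 groups. The check covered all 10 members in each of the 3 groups, so such gaps can arise by chance.

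The 2 lines differed in the direct test for 3 members: NRF1 by 0.18, TFAM by 0.22 and POLRMT by -0.14 on the log2 scale (shTST minus overTST, edgeR adjusted p = 0.0374, 0.00119 and 0.0309). Each had groups that did not overlap, in 4 of 4 libraries against 4 of 4. Over all genes tested in this comparison, 33.0% were called and 29.2% did not overlap, close to the share of the members. The NRF1 call was lost in 7 alternative runs and the POLRMT call in 4.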

How the results depend on the processing

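Over the 30 member values, 610 alternative fits gave the same direction and the same side of the threshold in 535, lost a call in 30, gained one in 14 and changed sign in 31, none of them where the value was called. Depth was lowest for PPARGC1B and MTERF1, at 62 to 136 and 82 to 235 counts per library.

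The largest value of changed sign was 0.092, for MTERF1 in shTST with 1 library left out. For MTERF1 in shTST the value became 0.0014 with DESeq2, 0.018 with upper-quartile scaling, 0.00031 with the CPM filter, 0.0027 with length correction, 0.0050 with that and the replicate block, and 0.00082 without mitochondrial genes. In overTST it became 0.0057, 0.0096 and 0.025 with upper-quartile scaling, length correction, and length correction with the replicate block, and NRF1 became 0.018 with upper-quartile scaling. Between the lines, length correction without and with the replicate block gave -0.038 and -0.042 for PPARGC1B, 0.032 and 0.032 for TFB1M, 0.014 and 0.015 for TWNK, and -0.0067 and -0.0097 for MTERF1. Leaving out 1 library, MTERF1 ran from -0.12 to 0.092 in shTST, from -0.14 to 0.052 in overTST and from -0.056 to 0.11 between the lines, TFB2M in shTST from -0.030 to 0.065, NRF1 in overTST from -0.035 to 0.025 and TWNK between the lines from -0.039 to 0.0053. The cause was not tested.

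Members called numbered 3 in each comparison. Leaving out 1 library gave 1 to 3 in shTST (1 without WT replicate 4 or shTST replicate 2), 2 to 3 in overTST and 1 to 3 between the lines (1 without shTST replicate 2 or overTST replicate 2), and no filter gave 1 between the lines. Related genes called ran from 6 to 11 in shTST (6 without shTST replicate 1, 7 without shTST replicate 3), from 21 to 29 in overTST and from 25 to 33 between the lines. The difference in mitochondrially encoded share ran from -1.84 to -0.148 percentage points in shTST (-0.148 without WT replicate 4) and from 1.96 to 3.65 in overTST.

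Upper-quartile scaling moved the share of called genes that were higher in shTST from 41.6% to 52.7%, and in overTST from 46.3% to 54.1%. Length correction moved it from 51.2% to 46.6% between the lines. Between the lines, fits passing genes through no filter gave 58.2% instead of 51.2%. Replicate numbers showed no clear pairing of the samples. Deviations over all genes correlated from -0.053 to 0.080 between libraries of the same number and from -0.11 to 0.078 otherwise. With 4 libraries per group, such correlations cannot exclude pairing. With the replicate block 2980 genes were called in shTST instead of 2346 and 5166 in overTST instead of 4893.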
